A study of Rattus norvegicus with 2 samples.

Results

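Semaphorins and ephrins are guidance ligands, and plexins, neuropilins and Eph receptors are the cell surface proteins that read them. These families were taken as the 53 rows, of 18049 in the expression table, whose gene symbol begins with Sema plus a class number, Plxn plus a to d, Efna, Efnb, Epha or Ephb plus a number, or is Nrp1 or Nrp2. They comprise 20 semaphorin, 9 plexin, 2 neuropilin, 8 ephrin and 14 Eph receptor genes. The rows were chosen by symbol, but the families were selected on the measured differences between siHsc70 and siSCR, which were known beforehand, so all values below are descriptions.

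The samples were 2 RNA-seq libraries of wild-type rat oligodendrocyte precursor cells (OPCs), the glial cells that give rise to myelin-forming oligodendrocytes. In the siHsc70 group the cells were electroporated with a small interfering RNA against Hsc70, the constitutive HSP70 chaperone encoded by Hspa8, and in the siSCR group with siSCR, the siRNA against which the design sets it. In both groups the cells came from the cortex of pups 2 to 4 days old by immunopanning with antibodies against GalC and A2B5. For differentiation both groups received 60 nM T3, a thyroid hormone, while PDGF-AA, bFGF and NT3 were withdrawn. According to the design text the cells were immature oligodendrocytes on day 2 of T3. Each group is 1 library of a primary culture, so there is no replicate check, no test and no p-value, and every difference compares these libraries. In bulk RNA, fewer cells of a type and less RNA per cell cannot be told apart.

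Semaphorins bind plexins directly or, for most secreted class 3 members, through a neuropilin that holds a plexin partner. The plexin's cytoplasmic domain inactivates small GTPases of the R-Ras and Rap kind, and the cytoskeleton of the growing process collapses or turns. Ephrins stay on the membrane and cluster Eph receptor tyrosine kinases on a neighbouring cell, and the ephrin-bearing cell can signal in reverse. In the oligodendrocyte lineage, members of both systems act on precursor migration and on process outgrowth, and several are present in myelin, where they hold back axon growth.

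The siHsc70 library had a total estimated count of 18130817, against 19085626 for siSCR. Hspa8 itself was at 507 CPM (read counts scaled for library size) in siHsc70, against 1399 CPM in siSCR. Markers of the lineage were lower in siHsc70: 12 of 14 measured genes of newly formed oligodendrocytes, 10 of 12 measured myelin genes and 8 of 11 measured precursor genes lay at least 2-fold lower, and 0 lay 2-fold or more higher. Summed deposited TPM (a level per transcript length) is given for each list over all its genes in the data, measured or not. It was 741 in siHsc70 against 3232 in siSCR for the newly formed stage, 969 against 5242 for myelin, and 633 against 1542 for precursors. Sox10, encoding a transcription factor of the lineage, was at 98.9 CPM in siHsc70 and 563 CPM in siSCR. Of the markers of other cells, 10 of 10 astrocyte genes were measured with a summed TPM of 2477 in siHsc70 against 3077 in siSCR. Of these 2 were at least 2-fold lower, among them Gfap at 481 against 1126 TPM, while 7 had differences above 0 and the list median was 0.19 on the log2(CPM + 1) scale. For neurons, 12 of 12 genes were measured with 450 against 643 TPM. Of these 3 were at least 2-fold lower, while 5 had differences above 0, and the list median was -0.37. For fibroblasts and mural cells, 6 of 10 were measured and 2 were at least 2-fold higher. All 10 together had 50.6 against 26.3 TPM. Of 10 microglial and 10 endothelial genes, 2 and 4 were measured, and 4 and 2 were absent from the data. The genes present, measured or not, had summed TPM of 12.5 against 7.22 and 8.15 against 7.15. Among the measured ones the microglial gene Cd68 was at least 2-fold higher and the endothelial gene Kdr at least 2-fold lower. Kdr rests on few reads, with estimated counts of 5 in siHsc70 and 44 in siSCR. Of the 4 measured endothelial genes 2 had differences above 0, and the median of that list was 0.17. Of these 5 lists, Lum and Cdh5 were at 0 in siHsc70 and Aif1 was at 0 in siSCR. Guidance genes are used by all of these cell types, and the part of cell composition in the values below was not tested.

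Genes whose mean of the 2 libraries reached 1 CPM were called measured, and 50 of the 53 were. A gene was called at least 2-fold lower or higher when log2(CPM + 1) in siHsc70 minus siSCR was at most -1 or at least 1. The pseudocount of 1 draws low genes towards 0. By this rule 8 of the 50 measured genes were at least 2-fold lower in siHsc70, beside 5.14% of all 13518 measured genes, and 0 passed it as higher, beside 2.29% of all. The lower genes were the semaphorins Sema5a, Sema3d, Sema6b and Sema5b, the plexin Plxnb3, the ephrins Efna1 and Efna2, and the Eph receptor Ephb1. The median difference over the 50 genes was -0.10 on this log2 scale, and that of all measured genes was -0.0034. Just inside the rule were Efna2 and Sema5b, both at -1.12, and just outside it Sema4c at -0.97 and Epha2 at 0.96. Ratios below are siHsc70 over siSCR in normalised counts with no pseudocount. They carry a 95% exact interval that covers counting error only, and that interval included 1 for 10 of the 50 genes, beside 33.7% of all measured genes.

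**Figure D1:**
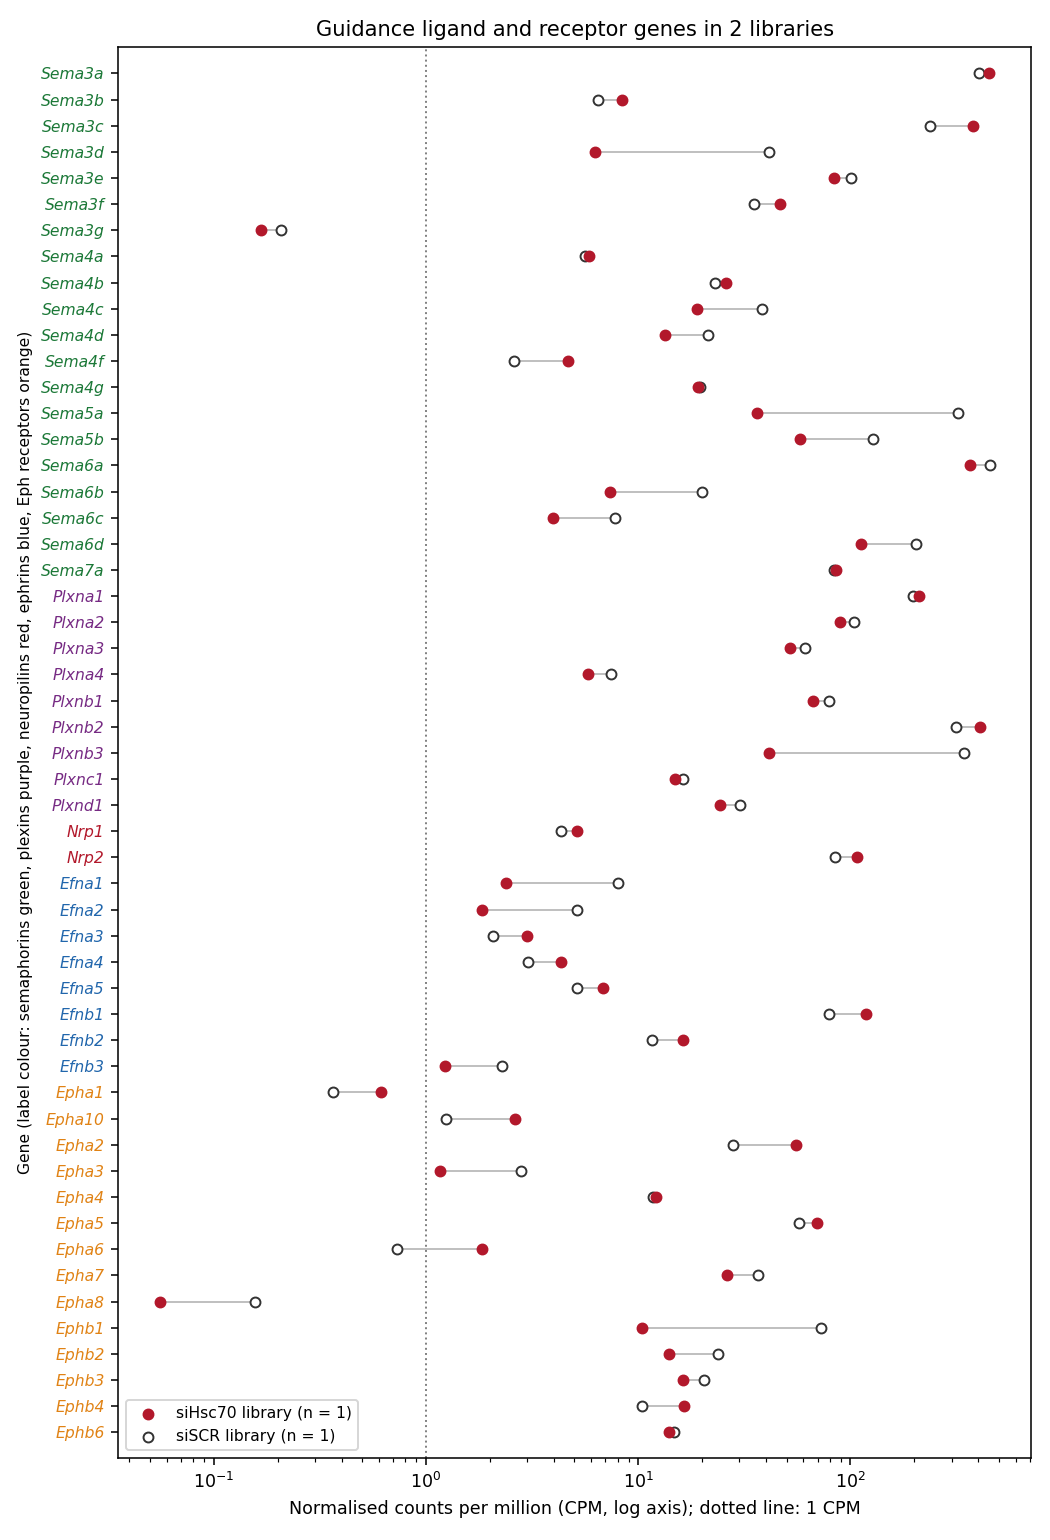
Normalised counts in CPM (log axis) of all 53 genes in the siHsc70 library (filled red) and the siSCR library (open), with a grey line joining the values of each gene. Sema5a, Plxnb3, Ephb1 and Sema3d show the widest gaps, with siHsc70 on the left, and 3 genes lie left of the 1 CPM line in both libraries.

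The class 5 semaphorins, transmembrane ligands with thrombospondin-type repeats, were the subfamily in which both measured genes passed the rule. Sema5a, whose product is made by oligodendrocytes of the optic nerve and inhibits axon growth, had 36.4 CPM in siHsc70 against 321 CPM in siSCR, from estimated counts of 654 and 6172. It was 8.82-fold lower (8.14 to 9.58), the 9th lowest difference of all 13518 measured genes. Sema5b, its paralogue, had 58.1 CPM in siHsc70 against 127 CPM in siSCR and was 2.19-fold lower (2.04 to 2.36). Per transcript length, Sema5b had 32.6 TPM in siHsc70 against 78.8 TPM in siSCR, where it was the 4th most abundant semaphorin. Sema5a had 6.62 TPM in siHsc70 against 64.4 TPM in siSCR, where it was the 6th. The class made up 6.31% of all semaphorin TPM in siHsc70, against 17.7% in siSCR.

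Class 6 semaphorins, transmembrane ligands of A plexins, lay lower in siHsc70 for all 4 members, with differences from -1.33 to -0.31 on the log2(CPM + 1) scale. Sema6b had 7.34 CPM in siHsc70 against 20.0 CPM in siSCR and was 2.72-fold lower (2.23 to 3.34), the only class 6 gene past the rule. Sema6a, reported to act in oligodendrocyte differentiation, was the most abundant of the class at 98.2 TPM in siHsc70 against 134 TPM in siSCR, with a ratio of 0.808 (0.782 to 0.834). Sema6d was at 113 CPM in siHsc70 against 203 CPM in siSCR, with a ratio of 0.555 (0.526 to 0.586). Sema6c was the least abundant, at 3.95 CPM in siHsc70 and 7.80 CPM in siSCR.

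Class 3 semaphorins, the secreted class, were divided. Sema3d, a secreted guidance cue, had 6.28 CPM in siHsc70 against 41.5 CPM in siSCR and was 6.61-fold lower (5.42 to 8.12), from estimated counts of 113 and 799. Sema3c and Sema3a were the 2 most abundant semaphorins of the siHsc70 library. Sema3c, a ligand of neuropilin and plexin complexes, had 378 CPM in siHsc70 against 236 CPM in siSCR, a ratio of 1.60 (1.54 to 1.66) that is under the 2-fold rule. Sema3a, which repels OPCs and restrains their differentiation, had 450 CPM in siHsc70 against 404 CPM in siSCR, with a ratio of 1.11 (1.08 to 1.15). The direction for Sema3a depends on the scale, since its deposited TPM was 134 in siHsc70 against 143 in siSCR. Sema3f, which attracts OPCs, had 46.7 CPM in siHsc70 against 35.2 CPM in siSCR, with a ratio of 1.32 (1.20 to 1.47).

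Of the other class 3 genes, Sema3e, which can bind plexin D1 without a neuropilin, had 83.5 CPM in siHsc70 and 100.3 CPM in siSCR. Sema3b had 8.40 CPM in siHsc70 and 6.50 CPM in siSCR. Sema3g was not measured, with estimated counts of 3 in siHsc70 and 4 in siSCR. With Sema3d left out, the remaining class 3 genes summed to 339 TPM in siHsc70 against 305 TPM in siSCR. The whole class held 54.9% of semaphorin TPM in siHsc70, against 40.0% in siSCR, and the summed TPM of all semaphorins was 622 in siHsc70 against 809 in siSCR.

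Class 4 and class 7 semaphorins held 0 genes past the rule. Sema4c, a transmembrane ligand of plexin B2, had 19.0 CPM in siHsc70 against 38.1 CPM in siSCR, a ratio of 0.498 (0.436 to 0.567). That ratio is just past 2-fold, but with the pseudocount the difference of Sema4c was -0.97, just outside the rule. Sema4d, a transmembrane ligand of plexin B1 found on oligodendrocytes, had 13.4 CPM in siHsc70 against 21.3 CPM in siSCR, with a ratio of 0.630 (0.535 to 0.741). Sema4f lay the other way, at 4.67 CPM in siHsc70 against 2.60 CPM in siSCR, with a ratio of 1.80 (1.25 to 2.60). Sema4a, Sema4b and Sema4g had counting intervals that included 1, and so did Sema7a, the membrane-anchored member that binds integrins and plexin C1. Sema7a was the most abundant of these genes, at 57.8 TPM in siHsc70 and 62.7 TPM in siSCR, with a ratio in normalised counts of 1.02 (0.950 to 1.09).

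Among the plexins 1 gene stood apart. Plxnb3, encoding the B plexin that binds SEMA5A, had 41.5 CPM in siHsc70 against 344 CPM in siSCR, from estimated counts of 746 and 6622. It was 8.30-fold lower (7.69 to 8.96), the 11th lowest difference of all measured genes. The other 8 plexins had ratios from 0.778 to 1.31. Plxnb2, encoding a widely expressed receptor of class 4 semaphorins, had 408 CPM in siHsc70 against 313 CPM in siSCR, with a ratio of 1.31 (1.26 to 1.35). Plxnb1, the SEMA4D receptor gene, had 66.4 CPM in siHsc70 against 78.9 CPM in siSCR.

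The order of the plexins by transcript level differed accordingly. In siHsc70 Plxnb2 was first, at 122 TPM (95% Poisson interval 120 to 125), and Plxnb3 was 6th at 13.3 TPM (12.4 to 14.3), next to Plxna3 at 13.6 TPM (12.7 to 14.5), from which it did not differ beyond counting error. In siSCR Plxnb3 was first at 122 TPM (119 to 125), above Plxnb2 at 103 TPM (101 to 106). Plxnb3 held 5.62% of plexin TPM in siHsc70, against 35.4% in siSCR. The other 8 plexins together had 224 TPM in siHsc70 and 223 TPM in siSCR.

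The A, C and D plexins had ratios from 0.778 to 1.07. Plxna1, which serves class 3 and class 6 ligands, was the most abundant of them, at 44.4 TPM in siHsc70 and 45.8 TPM in siSCR. Its ratio in normalised counts was 1.07 (1.02 to 1.12), so that its direction also depends on the scale. Plxna2, a receptor gene for class 6 ligands, had 89.4 CPM in siHsc70 and 104 CPM in siSCR, and Plxna3 had 52.0 and 60.8 CPM in the same order. Plxnd1, the SEMA3E receptor gene, had 24.4 CPM in siHsc70 and 30.2 CPM in siSCR, with a ratio of 0.807 (0.711 to 0.915). For Plxna4 and Plxnc1 the counting interval included 1. The neuropilins were close in both libraries: Nrp2, the coreceptor gene for SEMA3F and SEMA3C, had 107 CPM in siHsc70 and 85.0 CPM in siSCR, with a ratio of 1.26 (1.18 to 1.35). Nrp1, the SEMA3A coreceptor gene, was far lower per length, at 1.67 TPM in siHsc70 and 1.53 TPM in siSCR, and Nrp2 held 96.0% of neuropilin TPM in siHsc70 and 95.7% in siSCR.

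**Figure D2:**
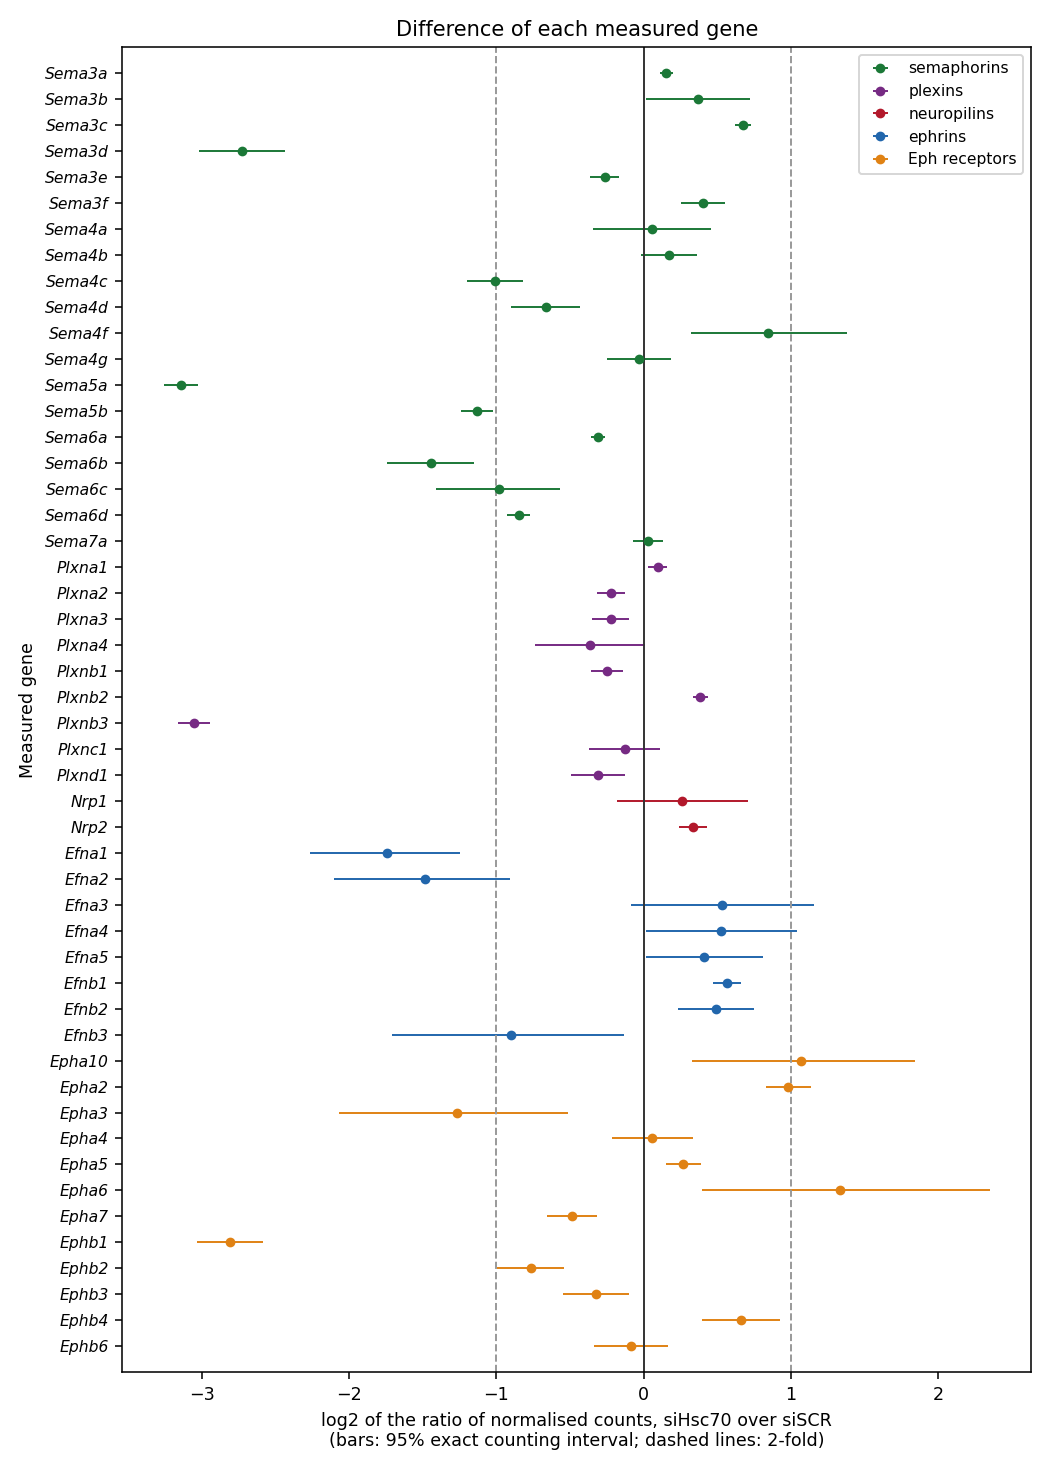
Ratio of normalised counts of each of the 50 measured genes, siHsc70 over siSCR, on a log2 axis, coloured by family, with 95% exact counting intervals and dashed lines at 2-fold. Sema5a, Plxnb3, Ephb1 and Sema3d lie beyond -2. Their paralogues lie on both sides, with Plxnb2, Sema3c and Ephb4 above 0 and Sema5b, Plxnb1, Sema3e and Ephb2 below 0.

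Among the ephrins, the A subfamily, anchored by a lipid tail, was divided and the B subfamily, which spans the membrane, held 0 genes past the rule. Efna1, the main ligand gene of EPHA2, had 3.19 TPM in siHsc70 against 11.6 TPM in siSCR and in normalised counts was 3.35-fold lower (2.37 to 4.81). Efna2 had 3.08 TPM in siHsc70 against 9.54 TPM in siSCR and was 2.80-fold lower (1.87 to 4.29). Both rest on few reads, with estimated counts of 43 and 32.87 in siHsc70 and 154 and 98.63 in siSCR. Efna3, Efna4 and Efna5 were also low, between 2.49 and 7.17 TPM in siHsc70 and between 1.90 and 5.49 TPM in siSCR. Their ratios ran from 1.33 to 1.44, and the interval of Efna3 included 1.

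Efnb1 was the most abundant ephrin, with 70.0 TPM in siHsc70 against 52.1 TPM in siSCR, and its ratio in normalised counts was 1.48 (1.39 to 1.58). Efnb2, the ligand gene of EPHB4, had 16.3 CPM in siHsc70 against 11.6 CPM in siSCR, with a ratio of 1.41 (1.18 to 1.68). Efnb3, whose product is a myelin inhibitor of axon growth, was near the limit of measurement at 1.22 CPM in siHsc70 and 2.29 CPM in siSCR. B ephrins held 82.0% of ephrin TPM in siHsc70, against 69.9% in siSCR. The summed TPM of all ephrins was 120 in siHsc70 against 108 in siSCR, so that this family, unlike the semaphorins, plexins and Eph receptors, did not have its lower sum in siHsc70.

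Of the B Eph receptors, which mostly bind B ephrins, Ephb1 was the gene past the rule. It had 10.4 CPM in siHsc70 against 72.7 CPM in siSCR and was 6.99-fold lower (6.00 to 8.19), from estimated counts of 187 and 1399. Ephb2 had 9.34 TPM in siHsc70 against 17.5 TPM in siSCR, with a ratio in normalised counts of 0.587 (0.502 to 0.686), and Ephb3 had 16.2 CPM against 20.3 CPM. Ephb4, the EFNB2 receptor gene, lay the other way at 16.5 CPM in siHsc70 against 10.4 CPM in siSCR, with a ratio of 1.58 (1.32 to 1.90). Ephb6, which encodes a receptor with an inactive kinase, had a counting interval that included 1.

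The A Eph receptors, which mostly bind A ephrins, held 0 genes past the rule. Epha2 came closest, with 55.4 CPM in siHsc70 against 28.1 CPM in siSCR and a ratio of 1.98 (1.78 to 2.20). Epha5, expressed in the developing brain, had 20.4 TPM in siHsc70 and 20.1 TPM in siSCR, where it was the most abundant A receptor. Its ratio in normalised counts was 1.21 (1.11 to 1.31), so the size of its difference depends on the scale. Epha7 had 26.2 CPM in siHsc70 and 36.7 CPM in siSCR. Epha4, whose product binds ephrins of both classes, had 12.2 CPM in siHsc70 and 11.7 CPM in siSCR, within counting error.

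Some low A receptors had ratios past 2-fold without passing the rule, because of the pseudocount. Epha6 had 1.83 CPM in siHsc70 against 0.728 CPM in siSCR, Epha10 had 2.61 CPM against 1.25 CPM, and Epha3 had 1.17 CPM against 2.81 CPM. With counts between 14 and 54 their intervals were wide. Epha1 and Epha8 were not measured, with estimated counts of 11.07 and 1 in siHsc70 and 7.05 and 3 in siSCR.

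By transcript level Ephb1 was 8th of the Eph receptors in siHsc70 at 4.28 TPM (3.69 to 4.94), against first in siSCR at 32.5 TPM (30.8 to 34.3). Epha2 was first in siHsc70 at 27.3 TPM, against 4th in siSCR at 15.3 TPM. B receptors held 36.2% of Eph receptor TPM in siHsc70, against 57.8% in siSCR. Without Ephb1, the other B receptors had 30.6 TPM in siHsc70 against 40.6 TPM in siSCR, and the other 13 Eph receptors together had 91.9 against 93.9 TPM.

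**Figure D3:**
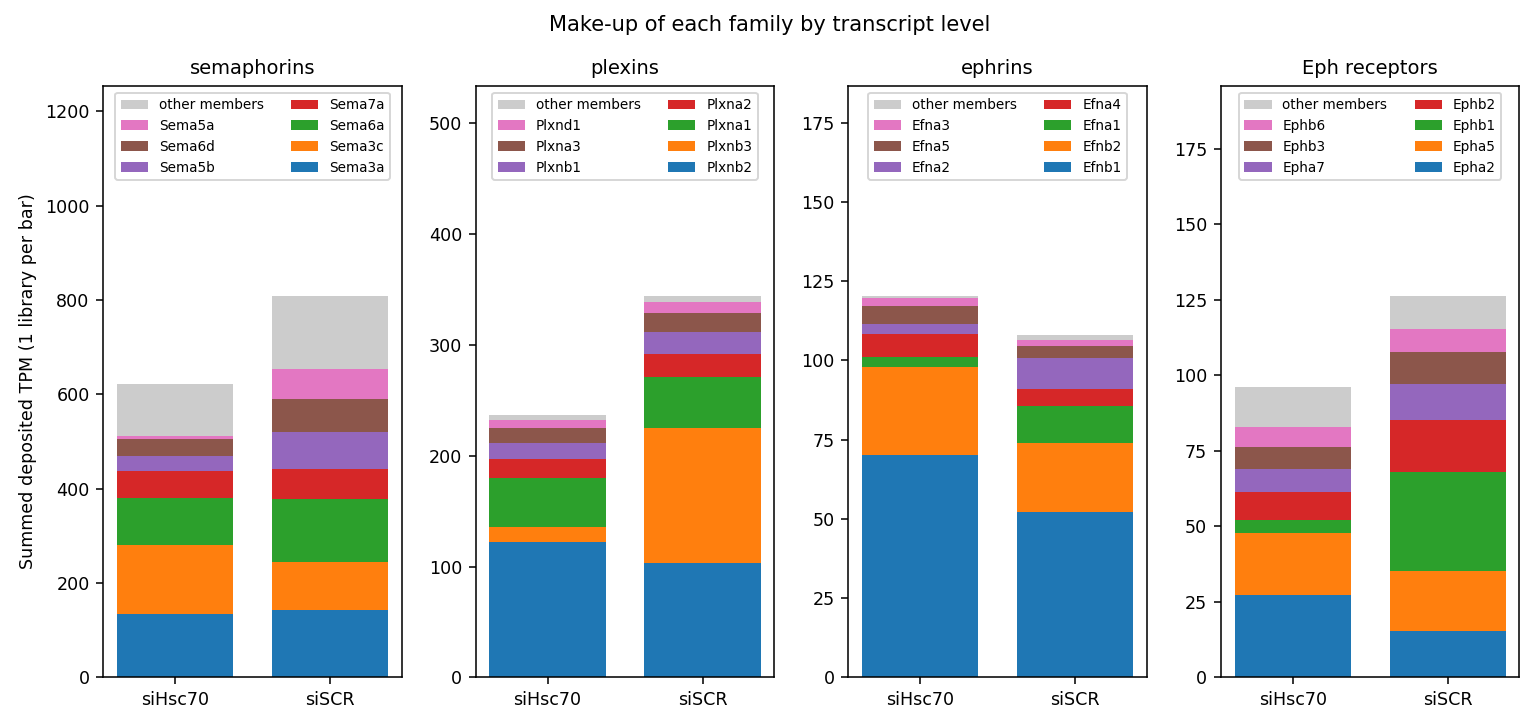
Summed deposited TPM of semaphorins, plexins, ephrins and Eph receptors in the siHsc70 library (left bar of each panel) and the siSCR library (right bar), split into the 7 members with the highest levels and the rest. The blocks of Plxnb3 and Ephb1 stand at 13.3 and 4.28 TPM in siHsc70, against 122 and 32.5 TPM in siSCR.

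The family sums were also split by the rule itself, so that the split is fixed by the differences and describes where the TPM lies. The 4 lower semaphorins summed to 45.4 TPM in siHsc70 against 172 TPM in siSCR, and the other 16 to 576 against 637 TPM. The 2 lower ephrins summed to 6.27 TPM in siHsc70 against 21.1 TPM in siSCR, and the other 6 to 114 against 87.0 TPM. In these deposited TPM values the median of all measured genes lay at -0.13 on the log2(TPM + 1) scale, so a gene with equal TPM in both libraries lies slightly above the median gene. On the log2(CPM + 1) scale the median difference was -0.26 for 19 measured semaphorins, -0.22 for 9 plexins, 0.27 for 2 neuropilins and 0.36 for 8 ephrins. It was -0.013 for 12 Eph receptors, and 0.045 under upper-quartile scaling.

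**Figure D4:**
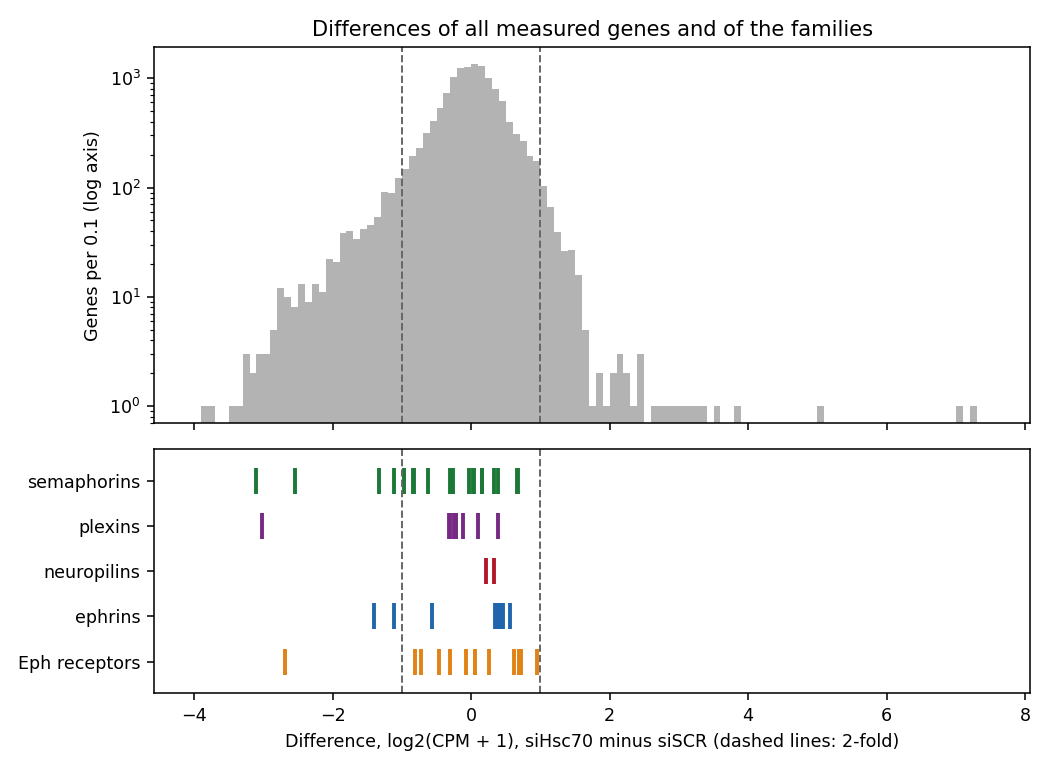
Differences in log2(CPM + 1), siHsc70 minus siSCR, for all 13518 measured genes (upper panel, number of genes per 0.1 on a log axis) and for each measured gene of the 5 families (lower panel, 1 tick per gene). The ticks left of the dashed line at -1 are the 8 lower genes, and 0 ticks lie right of the line at 1.

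Known ligand and receptor partners were set side by side as a description, since the pairs were chosen with earlier results of these data known. Of 20 textbook pairs, the pair of Sema5a and Plxnb3 had both partners past the rule. Sema5a with Plxna3, another reported receptor gene, had a lower ligand only, since Plxna3 was at 13.6 TPM in siHsc70 and 17.5 TPM in siSCR. In the pair of Efna1 and Epha2 the ligand was 3.35-fold lower, while the receptor had a ratio of 1.98. In the pair of Efnb3 and Ephb1 the receptor was 6.99-fold lower and the ligand was at 0.760 TPM in siHsc70 and 1.58 TPM in siSCR. In the pair of Efnb2 and Ephb4 both genes had ratios above 1, at 1.41 and 1.58, and in the pair of Sema3e and Plxnd1 both lay below 1, at 0.833 and 0.807. The library mixes all cells of a culture, so it does not show which cells carry a ligand and which its receptor.

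Genes that neighbour each other in the rat genome did not all share a direction. In the RefSeq annotation of assembly GRCr8, Efna1, Efna3 and Efna4 follow each other with 0 protein-coding genes between them. Efna1 had a difference of -1.41, against 0.38 for Efna3, whose counting interval included 1, and 0.41 for Efna4. Sema3a and Sema3d are likewise next to each other, at 0.15 and -2.55. In deposited TPM Sema3a also lay lower in siHsc70, at 134 against 143, so the direction of this pair depends on the scale. Sema3b and Sema3f, with 3 protein-coding genes between them, lay at 0.33 and 0.40.

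To show the DNA at the start of the genes with the largest gaps, promoter windows were taken from RefSeq (build GRCr8), each 250 bases before and 50 after the gene's start, and 43 of the 53 genes had one. Those of Plxnb3, Ephb1 and Sema3d, the lower genes furthest from 0 with a window, are printed with that of Plxnb2, the plexin paralogue with the highest mean level. The capitals mark SOX-type letters, ACAAAG or ACAATG on either strand, a core that SOX factors can bind. The Plxnb3 window lies at chrX:156646624-156646923 on the plus strand, and those of Ephb1 (chr8:111823710-111824009), Sema3d (chr4:23460922-23461221) and Plxnb2 (chr7:122137899-122138198) lie on the minus strand.
Plxnb3: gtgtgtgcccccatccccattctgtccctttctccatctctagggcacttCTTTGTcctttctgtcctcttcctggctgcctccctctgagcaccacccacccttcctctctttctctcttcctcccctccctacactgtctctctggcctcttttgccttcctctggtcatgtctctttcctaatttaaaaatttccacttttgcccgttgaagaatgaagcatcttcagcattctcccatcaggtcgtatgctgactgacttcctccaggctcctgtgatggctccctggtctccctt
Ephb1: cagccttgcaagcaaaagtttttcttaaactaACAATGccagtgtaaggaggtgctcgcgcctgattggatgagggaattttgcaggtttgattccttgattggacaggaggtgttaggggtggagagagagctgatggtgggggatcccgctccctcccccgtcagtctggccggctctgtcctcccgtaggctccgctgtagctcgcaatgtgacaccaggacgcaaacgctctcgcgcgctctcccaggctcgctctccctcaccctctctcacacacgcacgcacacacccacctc
Sema3d: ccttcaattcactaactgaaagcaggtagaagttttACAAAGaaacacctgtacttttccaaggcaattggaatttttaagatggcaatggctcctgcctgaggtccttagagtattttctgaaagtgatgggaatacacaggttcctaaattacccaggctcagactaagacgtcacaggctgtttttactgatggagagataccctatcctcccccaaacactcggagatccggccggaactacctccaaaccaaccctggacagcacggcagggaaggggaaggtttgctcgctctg
Plxnb2: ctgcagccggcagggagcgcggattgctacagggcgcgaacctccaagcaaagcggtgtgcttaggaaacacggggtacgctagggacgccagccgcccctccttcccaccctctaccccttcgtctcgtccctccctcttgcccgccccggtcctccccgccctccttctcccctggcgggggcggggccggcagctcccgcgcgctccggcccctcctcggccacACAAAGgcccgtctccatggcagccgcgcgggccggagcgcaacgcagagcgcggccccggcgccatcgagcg

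Each of the 4 windows holds 1 such match. It begins 200 bases before the start in Plxnb3, 218 in Ephb1, 214 in Sema3d and 23 in Plxnb2. Such letters occur in 11 of the 43 windows (25.6%), and in 28.6% of 27457 gene windows of the same length in the table. They occur in 4 of 7 windows of the lower genes and in 7 of 33 windows of the measured genes that did not pass the rule. The heat shock element letters GAANNTTC, also searched on both strands, occur in 0 of 7 windows of the lower genes, in 3 of the 43 windows and in 8.34% of all. A match is a run of letters and not a measured binding site. The windows of these families had a median of 61.0% G or C, against 52.3% over the 27457 gene windows. Those were not limited to genes of the expression data or to measured genes, so the sets are unlike. Within the families the range is wide, with 52.0% in Plxnb3, 58.0% in Ephb1, 47.3% in Sema3d and 73.7% in Plxnb2.

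Other genes of these pathways were followed through lists drawn from textbook knowledge. Of 47 measured genes of semaphorin and plexin signalling, 5 (10.6%) passed the rule as lower in siHsc70, beside 5.14% of all measured genes, and 0 as higher, beside 2.29% of all. The list median was -0.023. Dpysl4 and Dpysl3 encode collapsin response mediator proteins, a family of cytosolic proteins that acts in the response to SEMA3A. Dpysl4 had 65.7 CPM in siHsc70 against 200.1 CPM in siSCR, and Dpysl3 had 49.7 CPM against 131 CPM. Lower genes named after their values were seen were Arhgap35, encoding a GTPase-activating protein, at 400.3 CPM in siHsc70 against 905 CPM in siSCR, and the kinase gene Fyn, at 517 against 1155 CPM. Fyn is also on the list of newly formed oligodendrocyte markers given above.

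Of 37 measured genes of ephrin and Eph signalling, 3 (8.11%) passed the rule as lower and 1 (2.70%) as higher, beside the same 5.14% and 2.29% of all measured genes, and the list median was -0.013. Chn2, encoding a Rac-inactivating chimaerin, had 11.6 CPM in siHsc70 against 62.9 CPM in siSCR. Anks1b, encoding a protein with ankyrin repeats, had 36.0 CPM in siHsc70 against 157 CPM in siSCR, and Ptpro, encoding a phosphatase of Eph receptors, had 32.4 CPM against 107 CPM. Grb10, encoding an adaptor protein, was the higher gene at 8.56 CPM in siHsc70 against 3.07 CPM in siSCR. Of 19 measured genes of Slit, netrin and RGM guidance, a neighbouring system, 2 passed the rule as lower and 0 as higher, beside the same shares of all genes, and the list median was -0.10. They were Dscam, a netrin receptor gene, at 5.17 CPM in siHsc70 against 19.7 CPM in siSCR, and Srgap3, encoding an effector of Slit and Robo, at 17.6 against 42.7 CPM.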

How the data were processed

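The RNA-seq values of 2 libraries, siHsc70 and siSCR, came from 1 table of the whole series with 6 value columns. It holds estimated counts, deposited by the authors as read counts per gene and not all whole, and TPM and FPKM values, both scaled for length and library size per the file headers. Which aligner, quantifier, annotation and strandedness were used is not given in the sources used here. Per the submitters' processing notes the build was mm39, a mouse genome, yet the gene IDs are those of rat, and all 53 genes of these families have the same ID and symbol in rat RefSeq. The build of the counts is therefore uncertain, and no coordinates of counted features are given.

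Estimated counts were rounded, scaled by TMM (edgeR 4.0.16, R 4.3.3; factors 0.992 for siHsc70 and 1.01 for siSCR) and written as CPM. A count of 3, about the one-sided 95% upper bound for an observed count of 0, corresponds to 0.167 CPM in siHsc70 and 0.156 CPM in siSCR. Ratios carry Clopper-Pearson intervals and TPM levels Poisson intervals (95%). PCR copies are not independent molecules, so intervals and floors cover counting error only. With 1 library per group nothing was tested between groups. Genes past the rule, and the most abundant of each subfamily, were given with ratios. Of each pathway list, the rule named up to 3 lower and 3 higher genes with the largest differences. For semaphorin and plexin signalling 1 lower gene is not reported here, so the genes named do not include all of its largest differences, and Arhgap35 and Fyn were named beyond the rule. The families, lists, pairs and motifs were chosen with earlier results of these data known. Alternatives were other pseudocounts, minimum means, scalings (size factors of DESeq2 1.42.0 among them), size rules and the deposited TPM or FPKM. The scaling and intervals were tried on simulated counts with Poisson error only. Variation between cultures and PCR copies was not simulated, so this does not show how the intervals perform beyond counting error. Proteins of these genes were not used here.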

Additional observations from a re-analysis of the deposited data

How the results depend on the processing

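Under the 9 alternatives run, the 8 genes at least 2-fold lower kept that call wherever they were measured. With a minimum mean of 5 CPM, 7 of them were. The changes of minimum mean, the pseudocount of 0.1 and the 1.5-fold rule could not undo a call. They leave each difference as it is, move it away from 0 or loosen the rule. Only the other scalings and the deposited TPM or FPKM could have undone one. Their differences in CPM, TPM and FPKM ran from -3.14 to -2.84 for Sema5a, from -3.10 to -2.91 for Plxnb3, from -2.79 to -2.36 for Ephb1, from -2.71 to -2.07 for Sema3d and from -1.70 to -1.06 for the other lower genes. As higher, 0 genes passed the rule in the main analysis, beside 310 of all 13518 measured genes. At a pseudocount of 0.1, 2 passed (Epha6 and Epha10), beside 518 of all 13518. Under upper-quartile scaling 1 passed (Epha2), beside 400 of all 13520. As lower, 10 passed at a pseudocount of 0.1, where Sema4c and Epha3 joined them, beside 898 of all 13518. In the deposited TPM 9 passed, where Sema4c joined them, beside 795 of all 13518. With a 1.5-fold rule 14 were lower and 6 higher, out of 1626 lower and 1304 higher genes in all. With the deposited TPM the plexin median was -0.34 and the neuropilin median 0.15, where the median of all measured genes was itself -0.13. Medians of semaphorins (-0.42 to -0.16) and plexins (-0.34 to -0.16) stayed below 0, and those of ephrins (0.30 to 0.45) and neuropilins (0.15 to 0.33) above 0, in every setting run. These settings reuse the same 2 libraries, and within families the genes were divided. In the main analysis 8 of 19 measured semaphorins and 2 of 9 plexins lay above 0, and 3 of 8 ephrins lay below 0. Of the 2 neuropilins, Nrp1 had a counting interval that included 1. No paired analysis was possible because each group is 1 library, and no library could be left out. Depth limits the low genes most: of the measured genes, Sema4f, Efna1, Efna2, Efna3, Efna4, Efnb3, Epha3, Epha6 and Epha10 have intervals that span more than 2-fold between their bounds.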

Other observations

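The deposited counts and FPKM values imply a transcript length for each gene in each library, which was compared over 42 genes of these families with at least 1 FPKM and 20 counts in both libraries. For 1 of them, Efna5, the implied length differed by more than 10% from the shift of the median gene, at 0.841 times in siHsc70 relative to siSCR. Among all 11973 genes compared in this way, 1.69% differed by as much. Efna5 had 3.00 FPKM in siHsc70 against 1.93 FPKM in siSCR, from estimated counts of 123 and 99, so that its ratio is larger in FPKM than in normalised counts. Sema3a and Epha5 lay on the other side, at 1.08 times each. Transcript forms were not analysed here, and the cause was not tested.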
